A study of Gallus gallus with 6 samples.

Results

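The mesenchymal pulp of the growing chicken feather was compared with the feather epithelium that surrounds it. Total RNA of both tissues came from feather follicles at the growth phase, and each tissue gave 1 library. The members of the comparison are the RefSeq transcript records with at least 20 counts in either library, which were 6851 of the 10964 records in the series. The tables list no count under 2, and a record that a table did not list was taken as 0. Of the 6851, 6439 were listed in both libraries, 323 in pulp alone and 89 in epithelium alone. Another 3028 records were listed but stayed under 20 counts, and 1085 occurred in the other 4 libraries of the series alone, which came from the growth-phase papilla, the resting-phase papilla and samples 2 and 4 days after a wound. At the edge of the rule, 66 records had exactly 20 counts in the higher library and 69 had exactly 19. The labels used here name no strain, age, sex or treatment for the growth-phase tissues, nor the number of birds or how the tissues were parted.

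A feather grows from a tubular follicle in which an epithelial cylinder wraps a core of mesenchyme. The epithelium folds into barb ridges, and its cells fill with alpha keratins and then with beta keratins, the corneous proteins of birds and reptiles, before they die and leave the barbs and their branches. The pulp is a loose connective tissue of fibroblasts, blood vessels and nerves that nourishes the epithelium and is withdrawn as the feather matures. Signals of the Wnt, BMP, FGF and hedgehog families pass between both layers while barbs form.

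The library totals were 5683214 reads in pulp and 6064791 in epithelium, of which the listed counts made up 2364748 and 2428052. The 10 most abundant records took 12.6% of the listed counts in pulp and 28.6% in epithelium. Counts were therefore scaled for library composition with TMM factors (trimmed mean of M values), with factors of 1.02 for pulp and 0.688 for epithelium. A log2 ratio is that of scaled CPM (counts scaled to a common library size) plus 1, pulp over epithelium. A fold of a single gene is the ratio of scaled counts, with its exact 95% interval in brackets, and the interval covers counting error only. Where a gene was unlisted in 1 library, the fold was computed with 3 counts in its place and is written as at least that size. That convention leaves out the counting error of the other library, and the lower exact 95% limit of such a fold is smaller, at 194.7-fold for CCL26 where the convention gives 239.9-fold. With 1 library in each tissue there is no replicate check and no test across genes, so differences between birds cannot be told apart from those between tissues.

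Among the 6851 records, 1832 (26.7%) stood at least 2-fold higher in pulp and 1398 (20.4%) at least 2-fold lower, which is 47.1% in all, and 3621 lay within 2-fold. The median log2 ratio was 0.08, with quartiles of -0.80 and 1.11. The differences were large: 1013 records (14.8%) differed by 4-fold or more towards pulp and 463 (6.76%) towards epithelium, 440 (6.42%) and 165 (2.41%) by 10-fold or more, and 29 (0.423%) and 19 (0.277%) by 100-fold or more. Records higher in pulp held 41.9% of the listed counts in pulp and 4.54% in epithelium. Records lower in pulp held 14.8% of the listed counts in pulp and 61.8% in epithelium. Among 446 records with at least 1000 counts in the higher library, 40.1% were higher and 28.9% lower, against 24.98% and 18.6% of the 3003 records with 20 to 99 counts. With the deposited RPM values, which are reads scaled to the library total alone, the median of all records moved up by 0.52 to 0.61, and 2625 records (38.3%) were higher and 761 (11.1%) lower. Gene lists are therefore read against these shares, and the split with RPM values is given where it moves a count by over 10% of the measured members or turns the sign of the median. Smaller moves with RPM values are not given. Genes were named by a rule, and any named beyond it were picked with their values in view. Gene counts in a list refer to members with at least 20 counts in either library. A member with fewer than 20 counts in 1 library entered through the other alone, which favours the direction of that other library. This holds for every list below, also where it is not repeated.

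**Figure D1:**
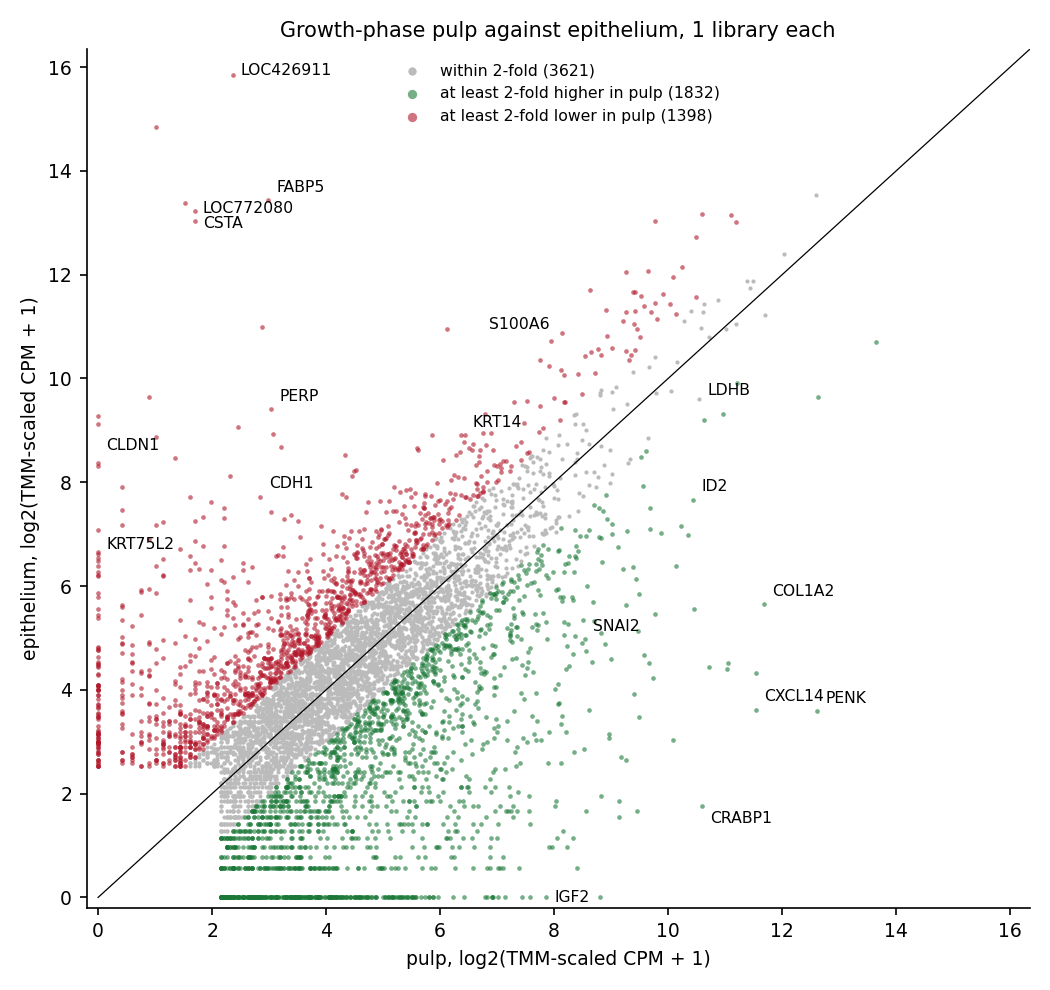
Each of the 6851 records is a point at its level in pulp (horizontal axis) and in epithelium (vertical axis), both as log2(TMM-scaled CPM + 1), and the line marks equal levels. Green points are the 1832 records at least 2-fold higher in pulp and red points the 1398 at least 2-fold lower, and PENK at the right edge and LOC426911 at the top left lie far from the line.

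Most markers of both tissues were higher in the library that bears their label. Of 9 mesenchymal markers, 7 were at least 2-fold higher in pulp, and their summed level was 3976 CPM in pulp and 98.5 CPM in epithelium. The fibroblast transcription factor PRRX1 had 652 counts in pulp and 2 in epithelium, 234-fold higher (64.5 to 1935). PDGFRA was unlisted in both libraries and POSTN had 9 counts in pulp and 3 in epithelium, so neither shows a direction between the tissues. POSTN was at 1.55 CPM in pulp and 0.719 CPM in epithelium, while the papilla and wound libraries of the series ran from 29.1 CPM in the growth papilla to 43.7 CPM in the resting papilla. Of 11 epithelial markers, 9 were matched to a record and 8 were lower in pulp, with a summed level of 111 CPM in pulp and 2374 CPM in epithelium. The desmosomal plaque gene DSP and the tight junction gene CLDN1 were unlisted in pulp, while the basal keratin KRT14 kept 495 counts in pulp and 1996 in epithelium, 5.62-fold lower (5.09 to 6.21). In bulk samples like these, a lower level of a cell type's genes can stand for fewer such cells or for less RNA in each, which cannot be told apart.

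Markers of other cells also divided between the libraries. All 7 endothelial markers were higher in pulp, with a summed level of 368 CPM in pulp and 18.2 CPM in epithelium. The 7 matched macrophage and leukocyte markers summed to 1269 CPM in pulp and 23.7 CPM in epithelium, and 6 of them were higher in pulp. CD74 alone gave 850 CPM of the pulp sum. The exception was the leukocyte marker PTPRC, with 3 counts in pulp and none listed in epithelium, and CSF1R was matched to no record. The 3 matched erythroid markers summed to 1454 CPM in pulp and 50.4 CPM in epithelium. Pigment cells lay on the other side, with melanocyte markers at 18.1 CPM in pulp and 756 CPM in epithelium, 5 of 6 lower and DCT unlisted in both. The part of these cell types in the results that follow was not tested. Pericyte and smooth muscle markers summed to 407 CPM in pulp and 115 CPM in epithelium, with 5 of 6 higher and MYH11 lower. Of 3 papilla markers, DKK2 was higher in pulp, OSTN was lower with 9 counts in pulp and 120 in epithelium, and WFIKKN2 stayed under 20 counts. Of 5 nerve and Schwann cell markers, GAP43 alone was matched, with no listed counts in pulp and 2 in epithelium.

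Genes at the ends of the range were named by rule, as the 12 highest and 12 lowest of 2314 records with a gene symbol and at least 200 counts in the higher library. The 12 highest held 2 secreted chemokines. CXCL14 had 17256 counts in pulp and 47 in epithelium. CCL26 was at least 239.9-fold higher in pulp, with 1003 counts against none listed in epithelium. They held 3 genes of the interferon response and antigen presentation, of which IFIT5, an RNA-binding interferon-induced protein, had 3287 counts in pulp and 8 in epithelium, 295-fold higher (149 to 683). Cell surface receptors were among them as well. The ferritin receptor SCARA5 was at least 263-fold higher in pulp, with 1099 counts against none listed in epithelium. The decoy interleukin receptor IL13RA2 had 3271 counts in pulp and 11 in epithelium, 213-fold higher (119 to 428). The endothelial transcription factor SOX18 was 313-fold higher in pulp (122 to 1149), with 1743 counts against 4 in epithelium. PENK, CRABP1, IGF2 and SFRP2, which encode the enkephalin precursor, a retinoic acid binding protein, an insulin-like growth factor and a secreted Wnt inhibitor, complete the list together with OASL and the class II gene BLB2.

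Several of the 12 lowest are known as genes of epithelial cells. The type II keratin KRT75L2 had no listed counts in pulp and 561 counts in epithelium, at least 261-fold lower. The type I keratin KRT9 was at least 171-fold lower in pulp, with none listed there against 368 counts in epithelium. ELOVL4, which elongates very long chain fatty acids for the lipids of the skin barrier, had 2 counts in pulp and 734 in epithelium, 512-fold lower (141 to 4232). The epithelial adhesion gene EPCAM (TACSTD1 in the tables) was 119-fold lower in pulp (81.3 to 183), with 26 counts against 2227 in epithelium. The 12 lowest also held a pair of LY6 family records, whose shared direction was set by that choice. LY6EL had 5 counts in pulp and 3314 in epithelium. LY6CLEL had no listed counts in pulp and 417 counts in epithelium. TMEM45L had no listed counts in pulp and 405 counts in epithelium, at least 188-fold lower. CSTA, FABP5, CLDN1, PERPB and CPM were the others.

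Across all 6 libraries of the series, pulp had the highest CPM for each of the 12 highest genes, and epithelium the highest CPM for each of the 12 lowest. Of the 1832 records higher in pulp than in epithelium, 1146 had their highest level of all 6 libraries in pulp, and of the 1398 lower records 1140 had theirs in epithelium. All these sets were chosen by their pulp and epithelium levels, which favours such ranks. The share over all measured records was not counted. PENK stood at 6242 CPM in pulp and 11.03 CPM in epithelium, and the 4 other libraries lay between them, from 578 CPM in the resting papilla to 3156 CPM at day 2. CCL26 was listed in pulp and in no other library of the 6. CRABP1 had 1547 CPM in pulp and 2.40 CPM in epithelium, and at most 15.01 CPM in the 4 others. The 4 other libraries were shallower, with totals of 3269376 to 3410045 reads, and their tables have another text layout.

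**Figure D2:**
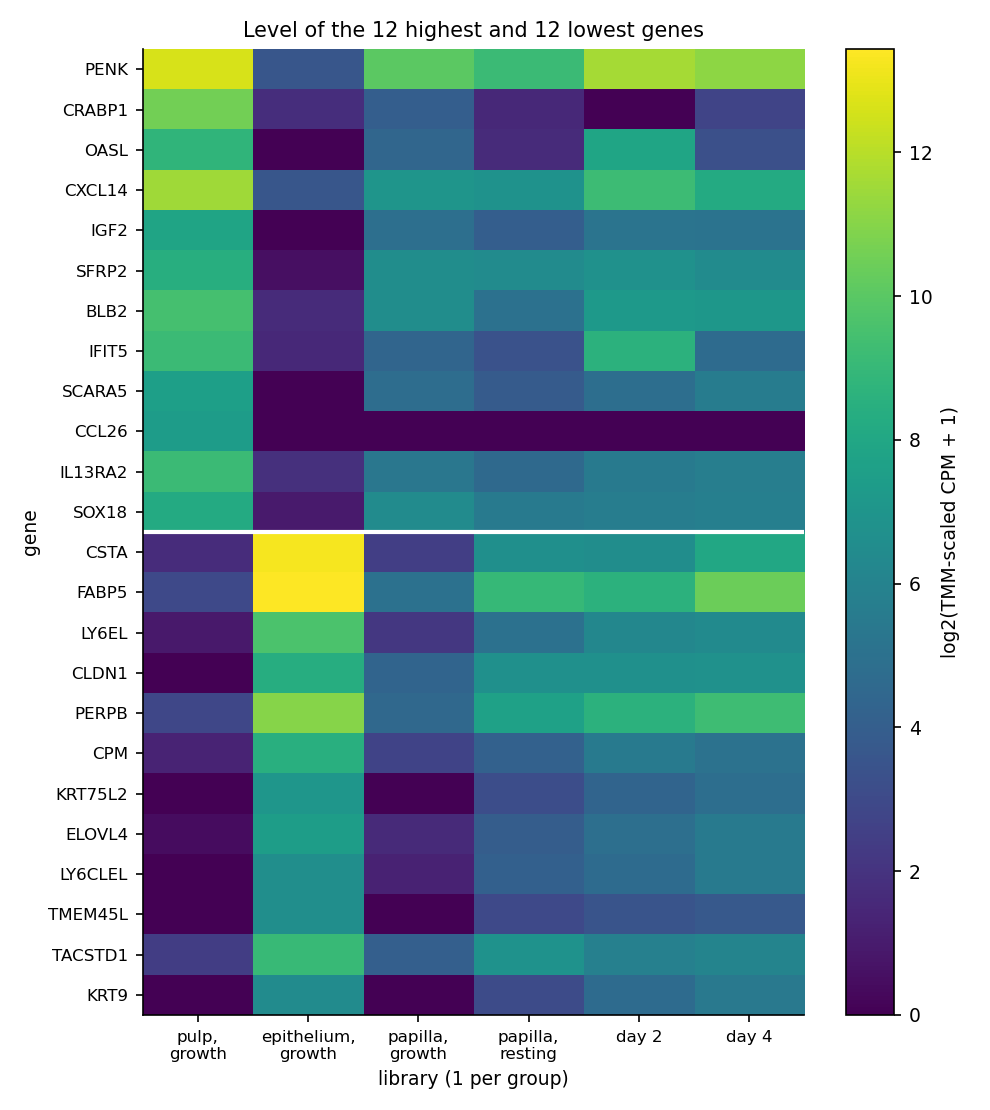
Rows are the 12 highest genes (above the white line) and the 12 lowest, columns are the 6 libraries with 1 per group, and colour gives log2(TMM-scaled CPM + 1). The 12 upper rows are brightest in pulp and the 12 lower rows in epithelium, and CCL26 is dark in every library but pulp.

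The largest differences of all were in beta keratins, the main proteins of the feather itself. The 9 measured records whose product name gives a feather, scale or beta keratin were all at least 2-fold lower in pulp, with 51 counts in pulp and 370287 in epithelium. They made up 0.00216% of the listed counts in pulp and 15.3% in epithelium. LOC426911, annotated as a scale keratin, was 14241-fold lower in pulp (9571 to 22227), with 24 counts against 245216 in epithelium. LOC426912, another record of that annotation, had 6 counts in pulp and 122786 in epithelium, 28524-fold lower (13104 to 77727). The feather keratin record LOC769139 was closer, with 6 counts in pulp and 600 in epithelium, 139-fold lower (63.7 to 381), and LOC770952 closest, with 11 counts in pulp and 25 in epithelium, 3.17-fold lower (1.504 to 7.13). Beta keratin genes are near-identical copies, so how counts divide among them is uncertain, and these records were picked by product name after their values were seen. LOC769486, annotated as a hypothetical protein, was 5623-fold lower in pulp (3142 to 11265), with 11 counts against 44376 in epithelium.

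Alpha keratins, which form the first filaments of the barb cells, were lower in pulp as a group: 10 of 11 measured members were at least 2-fold lower in pulp and 0 higher (median log2 ratio -3.05, or -3.75 with unlisted members at their bound). Of the 11, 5 were unlisted in pulp and so entered through epithelium alone. Of the type I genes, KRT15 had 42 counts in pulp and 714 in epithelium, 23.7-fold lower (17.4 to 33.2). KRT10 was 8.45-fold lower in pulp (7.43 to 9.63), with 276 counts against 1673 in epithelium. Of the type II genes, KRT71 had no listed counts in pulp and 109 counts in epithelium, at least 50.6-fold lower. KRT8 was 4.66-fold lower in pulp (4.25 to 5.10), with 618 counts against 2065 in epithelium. The exception was KRT75, a gene whose mutation gives the frizzle feather, with 22 counts in pulp and 33 in epithelium, 2.09-fold lower (1.18 to 3.76), which the pseudocount brought within 2-fold on the log2 scale. A record annotated as a type I hair keratin, LOC772080, had 13 counts in pulp and 34794 in epithelium, 3731-fold lower (2181 to 7007), and it too was chosen after its values were seen. KRT14 and KRT8 thus kept 495 and 618 counts in pulp, where KRT71, KRT9 and KRT75L2 were unlisted.

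Filament genes of mesenchymal cells stood opposite. Vimentin (VIM) was at least 61.5-fold higher in pulp, with 257 counts against none listed in epithelium. Nestin (NES), a filament of progenitor and vascular cells, had 790 counts in pulp and 2 in epithelium, 283-fold higher (78.2 to 2344). In the broader cytoskeleton list, 10 of 26 measured members were at least 2-fold higher in pulp and 6 lower (median log2 ratio 0.06). The actin bundling gene FSCN1 was 3.58-fold higher in pulp (3.21 to 4.002), with 1925 counts against 386 in epithelium. The membrane linker MSN had 2282 counts in pulp and 561 in epithelium, 2.92-fold higher (2.66 to 3.21). The tubulin TUBB4B was 3.59-fold lower in pulp (3.26 to 3.95), with 588 counts against 1514 in epithelium.

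Keratin genes also lay side by side in the genome. In the RefSeq gene order, 18 runs of at least 5 neighbouring measured protein-coding genes pointed in 1 direction past 2-fold, 14 of them higher and 4 lower in pulp, over 6412 genes placed. The longest was lower in pulp and held 15 genes, from NCSTN through COPA, S100A11 and the beta keratin records to S100A6. S100A6, a calcium-binding protein, had 1432 counts in pulp and 7002 in epithelium, 6.82-fold lower (6.44 to 7.22). A run of 6 held the type I keratins KRT10, KRT9 and KRT14 with LOC772080, and a run of 5 held the type II keratins KRT8, KRT71, KRT75L1, KRT75L2 and KRT6A. Among the runs higher in pulp, 1 of 6 genes held the cadherins CDH5, CDH11 and CDH8, and 1 of 5 genes held the fatty acid desaturases FADS1 and FADS2. Members of such runs include copies of 1 gene family, and no test of runs was made.

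Cell junctions differed by their parts. Of the desmosome genes, which bind keratin filaments to the cell border, 6 of 7 measured members were at least 2-fold lower in pulp and 0 higher (median log2 ratio -5.17). DSG2, DSG4, DSC1 and DSP had fewer than 20 counts in pulp and so entered through epithelium alone. The desmosomal cadherin DSG2 was 138-fold lower in pulp (37.7 to 1147), with 2 counts against 198 in epithelium. Its relative DSG4, a cadherin of cornifying cells, had no listed counts in pulp and 178 counts in epithelium, at least 82.7-fold lower. The desmosome protein PERP was 94.3-fold lower in pulp (69.6 to 131), with 42 counts against 2842 in epithelium. Among classical cadherins, epithelial CDH1 had 36 counts in pulp and 877 in epithelium, 33.96-fold lower (24.3 to 48.8). CDH11 of mesenchyme was 107-fold higher in pulp (58.00 to 224), with 1491 counts against 10 in epithelium. CDH8, best known from the nervous system, had 465 counts in pulp and 4 in epithelium, 83.4-fold higher (32.4 to 307). Endothelial cadherin CDH5 was 77.8-fold higher in pulp (33.1 to 240.5), with 542 counts against 5 in epithelium.

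Tight junction genes lay on both sides, since 2 of 7 measured members were at least 2-fold higher in pulp and 2 lower (median log2 ratio -0.26), against 2 higher and 2 lower with the deposited RPM values (median 0.30). Each of these shares was 28.6%, against 26.7% higher and 20.4% lower over all records. CLDN1, the sealing claudin of the epidermis, had no listed counts in pulp and 1383 counts in epithelium, at least 643-fold lower. Endothelial CLDN5, which is not among these 7 members, was 27.98-fold higher in pulp (7.49 to 235), with 78 counts against 2 in epithelium. The scaffold gene TJP1 lay within 2-fold and had 303 counts in pulp and 261 in epithelium. TJP3 and MARVELD3, also known from epithelia, were on the pulp side. TJP3 had 79 counts in pulp and 8 in epithelium, 7.08-fold higher (3.43 to 16.98). MARVELD3 was 6.26-fold higher in pulp (3.83 to 10.8), with 157 counts against 18 in epithelium. Connexins divided likewise. The epidermal connexin GJB6 had 12 counts in pulp and 102 in epithelium, 11.8-fold lower (6.496 to 23.7). The widespread GJA1 was 2.63-fold lower in pulp (2.499 to 2.76), with 2444 counts against 4604 in epithelium. The arterial GJA4 had 51 counts in pulp and none listed in epithelium, at least 12.2-fold higher. Of hemidesmosome genes, COL17A1 was 3.97-fold lower in pulp (2.83 to 5.67), with 47 counts against 134 in epithelium. The linker DST had 125 counts in pulp and 10 in epithelium, 8.97-fold higher (4.72 to 19.2).

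Cornification genes were lower in pulp in most cases, as 6 of 10 measured members were at least 2-fold lower in pulp and 2 higher (median log2 ratio -2.94). CSTA, a cysteine protease inhibitor, had 13 counts in pulp and 39954 in epithelium. Envoplakin (EVPL) and periplakin (PPL) are scaffolds of the envelope. EVPL had 17 counts in pulp and 814 in epithelium. PPL was 67.4-fold lower in pulp (39.2 to 127), with 13 counts against 629 in epithelium. TGM3, the transglutaminase that crosslinks the envelope, had no listed counts in pulp and 300 counts in epithelium, at least 139-fold lower. TGM2, the widespread tissue transglutaminase, was at least 61.9-fold higher in pulp, with 259 counts against none listed in epithelium. ANXA1 and ANXA2, annexins found in many cell types, were within 2-fold. The heat shock gene HSPB8 and the protease inhibitor record LOC416234 were seen afterwards to be lower in pulp than in epithelium as well. HSPB8 had 48 counts in pulp and 1716 in epithelium. LOC416234 had 43 counts in pulp and 2033 in epithelium.

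Barrier lipid genes were unevenly lower: 9 of 17 measured members were at least 2-fold lower in pulp and 2 higher (median log2 ratio -1.08). FABP5, the epidermal fatty acid binding protein, had 40 counts in pulp and 46133 in epithelium. The elongase ELOVL6 had 25 counts in pulp and 202 in epithelium, 11.3-fold lower (7.41 to 17.8). The sphingolipid enzyme SPTLC3 was at least 28.8-fold lower in pulp, with none listed there against 62 counts in epithelium, while ELOVL1 and ELOVL5 lay within 2-fold. The desaturases FADS1 and FADS2 went the other way. FADS1 had 98 counts in pulp and 26 in epithelium, 2.70-fold higher (1.74 to 4.34). FADS2 was 8.28-fold higher in pulp (6.01 to 11.7), with 473 counts against 41 in epithelium. A further record, LOC428851, is annotated as fatty acid desaturase 1, which is also the name of FADS1, and lay on the opposite side. LOC428851 had no listed counts in pulp and 345 counts in epithelium, at least 160.3-fold lower. Further genes of ceramide synthesis were found after the values were seen. The fatty acid hydroxylase FA2H was 123-fold lower in pulp (59.6 to 308), with 7 counts against 620 in epithelium. SPTSSB, a small subunit of the first sphingolipid enzyme, had 15 counts in pulp and 670 in epithelium, 62.3-fold lower (37.5 to 112). Cholesterol synthesis genes were also lower, as 12 of 17 measured members were at least 2-fold lower in pulp and 2 higher (median log2 ratio -1.32), against 2 higher and 6 lower with the deposited RPM values. SC4MOL, which removes methyl groups from sterols, was 6.53-fold lower in pulp (5.30 to 8.09), with 110 counts against 515 in epithelium. LSS, which closes the sterol rings, had 165 counts in pulp and 553 in epithelium, 4.67-fold lower (3.92 to 5.59). STARD4, a cholesterol carrier, stood apart with 84 counts in pulp and 6 in epithelium, 10.04-fold higher (4.43 to 28.1).

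**Figure D3:**
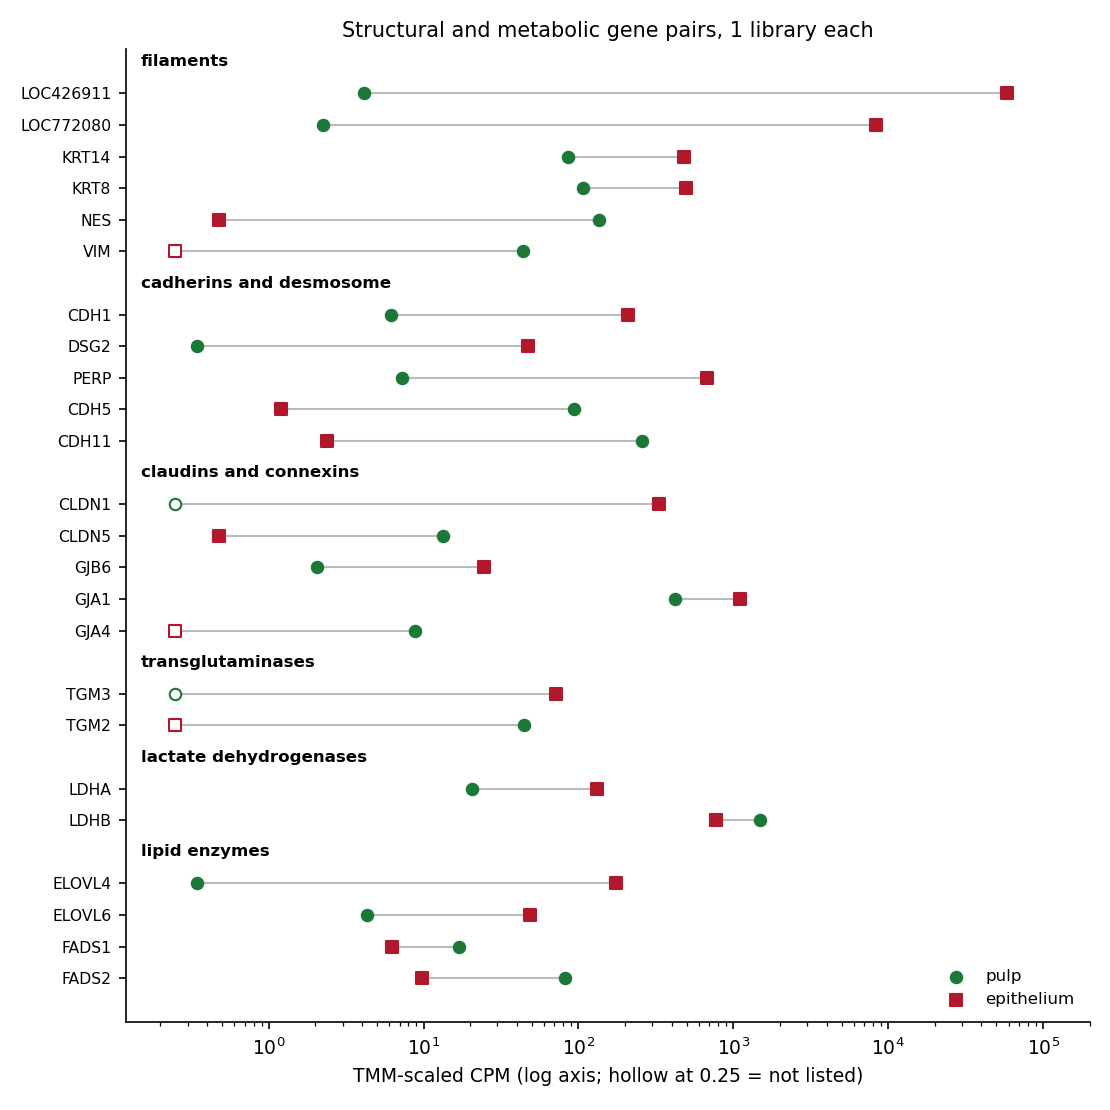
Points give the TMM-scaled CPM on a log axis in pulp (green circles) and epithelium (red squares), 1 library each, and a hollow point at 0.25 marks a gene that the table did not list. Within filaments, cadherins, claudins, connexins, transglutaminases, lactate dehydrogenases and lipid enzymes some genes lie higher in pulp and others higher in epithelium.

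Transcription factors of epithelial identity were lower in pulp: 13 of 15 measured members were at least 2-fold lower in pulp and 1 higher (median log2 ratio -2.71, or -3.24 with unlisted members at their bound), against 1 higher and 11 lower with the deposited RPM values. Members such as GRHL3, KLF5, TP63, ESRP1, EHF and FOXN1 had fewer than 20 counts in pulp and so entered through epithelium alone. GRHL3, a factor of barrier formation, was 42.2-fold lower in pulp (25.3 to 76.00), with 15 counts against 454 in epithelium. KLF5, a basal layer factor, had 13 counts in pulp and 358 in epithelium, 38.4-fold lower (22.2 to 72.8). GATA3, a factor of epidermis and hair follicles in mice, was 10.03-fold lower in pulp (7.95 to 12.8), with 82 counts against 590 in epithelium. TP63, the master factor of stratified epithelia (TP73L in the tables), was sparse, with 7 counts in pulp and 56 in epithelium, 11.2-fold lower (5.07 to 29.00). Both epithelial splicing regulators were lower, by unequal folds. ESRP1 had 3 counts in pulp and 103 in epithelium, 47.9-fold lower (15.9 to 236). ESRP2 (RBM35B in the tables) was 2.58-fold lower in pulp (2.39 to 2.79), with 984 counts against 1823 in epithelium. The exception was TFAP2C, with 152 counts in pulp and 46 in epithelium, 2.37-fold higher (1.69 to 3.37). Its relative TFAP2A had 203 counts in pulp and 226 in epithelium.

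Mesenchymal identity factors were higher, as 9 of 10 measured members were at least 2-fold higher in pulp and 0 lower (median log2 ratio 4.17). The repressors of epithelial genes ZEB1, ZEB2 and SNAI2 were among them. Members such as PRRX1, TWIST2 and MEOX2 had fewer than 20 counts in epithelium and so entered through pulp alone. ZEB2 had 4710 counts in pulp and 92 in epithelium, 36.7-fold higher (29.9 to 45.7). SNAI2 was 12.2-fold higher in pulp (10.2 to 14.7), with 2164 counts against 127 in epithelium. The skin fibroblast factor TWIST2 had 180 counts in pulp and none listed in epithelium, at least 43.05-fold higher. MSX1 was within 2-fold, at 37 counts in pulp and 20 in epithelium. Its relative MSX2, chosen after its value was seen, was 70.5-fold lower in pulp (29.8 to 219), with 5 counts against 253 in epithelium. Further regulators of limb and trunk patterning were unlisted in epithelium. SALL1 had 696 counts in pulp, LBX1 had 745 and HAND2 had 818, and these were also chosen afterwards. HOX genes, which mark position along the body, were mixed, as 4 of 10 measured members were at least 2-fold higher in pulp and 1 lower (median log2 ratio 0.71), against 7 higher and 1 lower with the deposited RPM values. HOXD8 had 259 counts in pulp and 35 in epithelium, 5.31-fold higher (3.72 to 7.79). HOXB7 was at least 16.02-fold higher in pulp, with 67 counts against none listed in epithelium. HOXA13 had 10 counts in pulp and 29 in epithelium, 4.04-fold lower (1.91 to 9.30).

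Genes of the extracellular matrix, the fibres and gels between mesenchymal cells, lay mainly on the pulp side. Of fibrillar collagens, the fibres of connective tissue, 6 of 6 measured members were at least 2-fold higher in pulp and 0 lower (median log2 ratio 5.15, or 5.35 with unlisted members at their bound). COL1A2, a chain of type I collagen, was 66.6-fold higher in pulp (58.1 to 76.8), with 19136 counts against 206 in epithelium. COL5A1, whose chain starts the assembly of fibrils, had 2130 counts in pulp and 26 in epithelium, 58.8-fold higher (40.00 to 90.2). COL1A1, the partner chain of COL1A2, was at least 52.4-fold higher in pulp, with 219 counts against none listed in epithelium. Of the other collagens, 13 of 15 measured members were at least 2-fold higher in pulp and 2 lower (median log2 ratio 4.33). COL6A1 and COL6A2 encode chains of microfibrils around cells. COL6A1 had 17243 counts in pulp and 79 in epithelium, 157-fold higher (126 to 198). COL6A2 was 81.9-fold higher in pulp (66.2 to 102), with 9816 counts against 86 in epithelium. COL4A1 and COL4A2 encode the chief chains of basement membranes. COL4A1 had 4130 counts in pulp and 143 in epithelium, 20.7-fold higher (17.5 to 24.7). COL4A2 was 30.3-fold higher in pulp (22.01 to 43.04), with 1607 counts against 38 in epithelium. The members lower in pulp were COL17A1, an epithelial transmembrane collagen, and COL14A1, with 8 counts in pulp and 25 in epithelium, 4.36-fold lower (1.90 to 11.2).

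Enzymes that modify collagen followed in part, as 10 of 13 measured members were at least 2-fold higher in pulp and 0 lower (median log2 ratio 1.62). The collagen chaperone SERPINH1 had 6565 counts in pulp and 344 in epithelium, 13.7-fold higher (12.3 to 15.3). The crosslinking oxidase LOXL1 was 17.1-fold higher in pulp (10.4 to 30.2), with 381 counts against 16 in epithelium. The prolyl hydroxylase P4HA3 had 695 counts in pulp and none listed in epithelium, at least 166-fold higher. The general prolyl hydroxylase subunits P4HA1 and P4HB, which also serve other proteins, lay within 2-fold. P4HB was 1.02-fold higher in pulp (0.931 to 1.11), with 1212 counts against 855 in epithelium. SPARC, a collagen-binding matrix protein, had 1448 counts in pulp and 4 in epithelium, 259.7-fold higher (101 to 954).

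Elastic fibre genes were higher too, as 8 of 11 measured members were at least 2-fold higher in pulp and 0 lower (median log2 ratio 4.08), against 10 higher and 0 lower with the deposited RPM values. Fibrillin FBN1 was 47.8-fold higher in pulp (36.98 to 62.9), with 3931 counts against 59 in epithelium. The latent TGF-beta binding protein LTBP1 had 6298 counts in pulp and 30 in epithelium, 151-fold higher (105 to 223). The microfibril protein MFAP5 was 220.0-fold higher in pulp (94.1 to 678), with 1533 counts against 5 in epithelium. Of the leucine-rich proteoglycans, which space collagen fibrils, 7 of 8 measured members were at least 2-fold higher in pulp and 1 lower (median log2 ratio 3.36, or 3.69 with unlisted members at their bound). Lumican (LUM) had 2177 counts in pulp and 108 in epithelium, 14.5-fold higher (11.9 to 17.7). Osteoglycin (OGN) was 189-fold higher in pulp (64.6 to 920.4), with 792 counts against 3 in epithelium. Fibromodulin (FMOD) was the member on the other side and had 20 counts in pulp and 55 in epithelium, 3.83-fold lower (2.26 to 6.75). Of genes for hyaluronan and the proteoglycans that bind it, 9 of 11 measured members were at least 2-fold higher in pulp and 0 lower (median log2 ratio 2.66, or 2.78 with unlisted members at their bound). Versican (VCAN) was 16.6-fold higher in pulp (13.8 to 20.1), with 2748 counts against 119 in epithelium. The hyaluronan receptor STAB1 of macrophages and vessel lining had 675 counts in pulp and 4 in epithelium, 121-fold higher (47.1 to 446).

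Of matricellular proteins, which sit in the matrix and bind cells or other matrix proteins, 11 of 14 measured members were at least 2-fold higher in pulp and 0 lower (median log2 ratio 3.16). Nidogen NID1, which joins laminin to collagen in basement membranes, was 105-fold higher in pulp (69.9 to 166), with 3366 counts against 23 in epithelium. Fibronectin (FN1) had 932 counts in pulp and 98 in epithelium, 6.82-fold higher (5.54 to 8.49). EGFL6, a matrix protein with EGF-like repeats, was at least 152-fold higher in pulp, with 637 counts against none listed in epithelium. THBS1, SMOC1 and COMP lay within 2-fold. Laminin chains were mixed, as 3 of 7 measured members were at least 2-fold higher in pulp and 1 lower (median log2 ratio 0.94), against 5 higher and 0 lower with the deposited RPM values. LAMA2 had 61 counts in pulp and 2 in epithelium, 21.9-fold higher (5.80 to 185). LAMB1 was 4.39-fold higher in pulp (3.84 to 5.03), with 1553 counts against 254 in epithelium. The epithelial chain LAMA5 had 165 counts in pulp and 265 in epithelium, 2.24-fold lower (1.84 to 2.74). Of integrins, the matrix receptors, 6 of 6 measured members were at least 2-fold higher in pulp and 0 lower (median log2 ratio 2.91, or 3.03 with unlisted members at their bound). Of the 13 matched members, 7 stayed under 20 counts in both libraries. ITGA1, ITGA11, ITGB2 and ITGB3 had fewer than 20 counts in epithelium and so entered through pulp alone. ITGB1, the beta subunit shared by many integrins, was 12.8-fold higher in pulp (11.2 to 14.7), with 4196 counts against 235 in epithelium. The collagen receptor subunit ITGA11 had 367 counts in pulp and 11 in epithelium, 23.9-fold higher (13.2 to 48.4).

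Proteases that cut this matrix and their inhibitors were higher as well, since 10 of 10 measured members were at least 2-fold higher in pulp and 0 lower (median log2 ratio 2.79). Of the 22 matched members, 12 stayed under 20 counts in both libraries. ADAMTS9, ADAMTS12 and MMP16 had fewer than 20 counts in epithelium and so entered through pulp alone. Gelatinase MMP2 was 9.98-fold higher in pulp (8.85 to 11.3), with 4007 counts against 288 in epithelium. The inhibitor TIMP3 had 1203 counts in pulp and 144 in epithelium, 5.99-fold higher (5.04 to 7.17). Of serine proteases and their inhibitors, 10 of 14 measured members were at least 2-fold higher in pulp and 2 lower (median log2 ratio 2.07). The complement proteases C1R and C1S lay on the pulp side. C1S was 9.25-fold higher in pulp (6.61 to 13.3), with 477 counts against 37 in epithelium. ST14, matriptase of epithelial cells, had 58 counts in pulp and 94 in epithelium, 2.26-fold lower (1.61 to 3.19). SERPINB2 was at least 14.9-fold lower in pulp, with none listed there against 32 counts in epithelium.

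**Figure D4:**
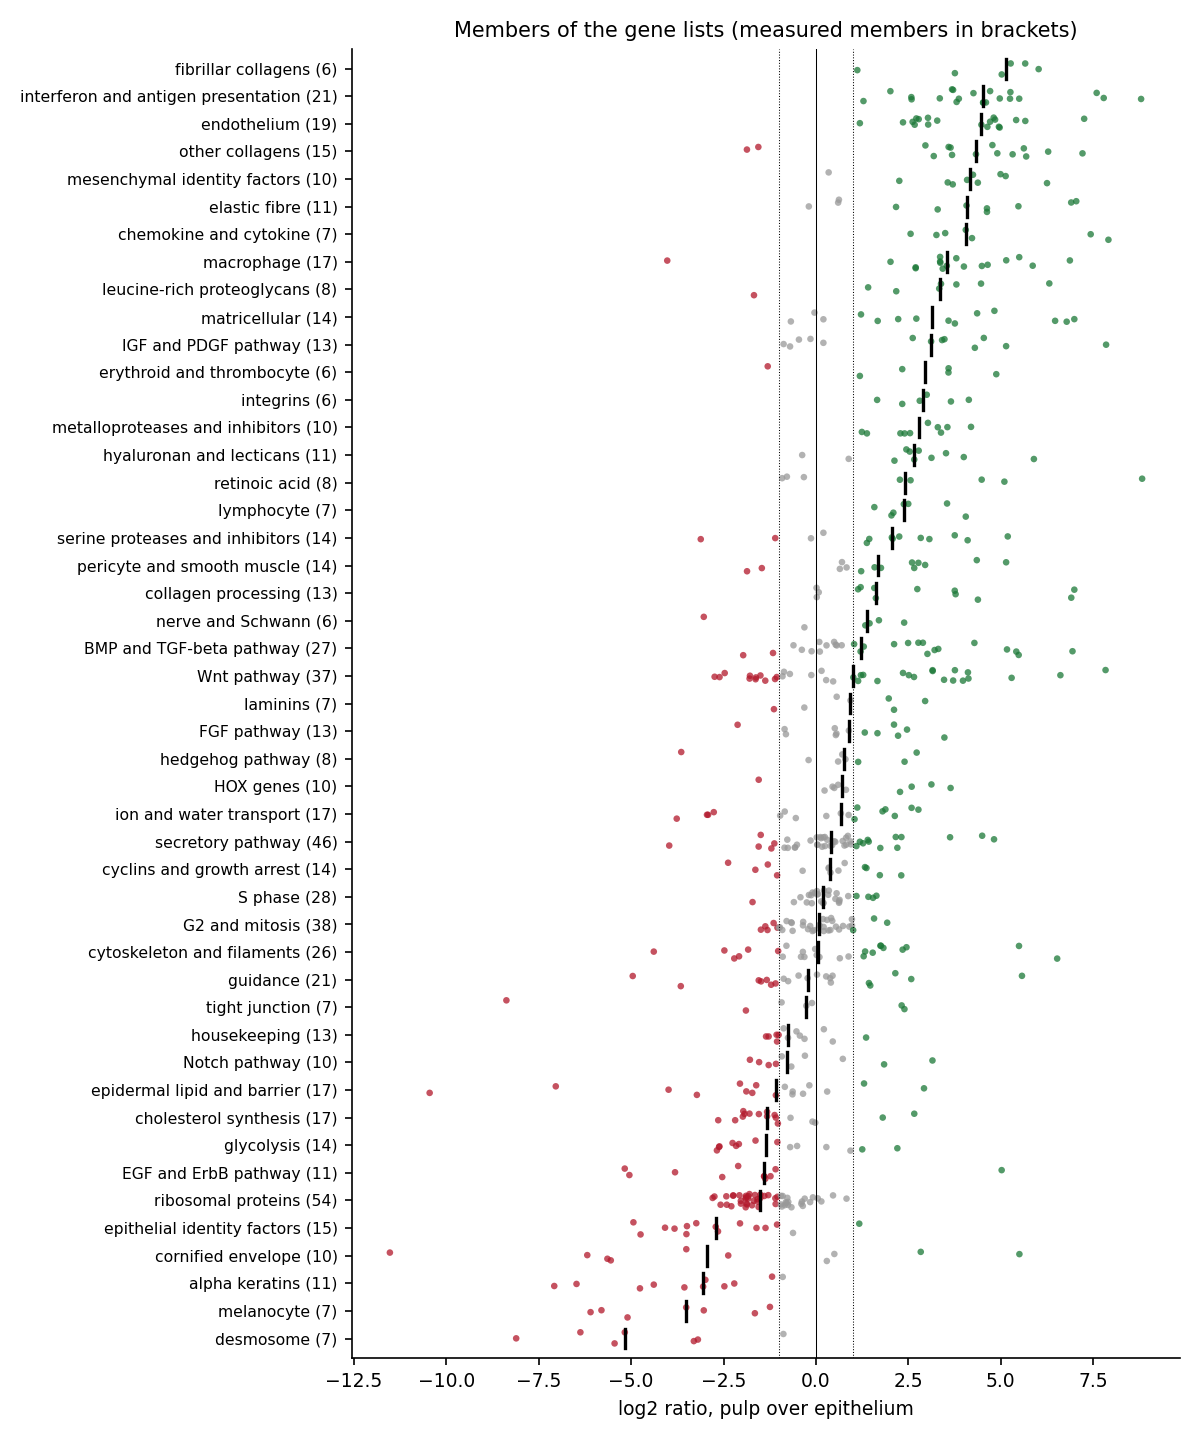
Each row is a gene list with at least 6 measured members (number in brackets), points are members at their log2 ratio of pulp over epithelium, and black bars are list medians. Green points are at least 2-fold higher in pulp and red points at least 2-fold lower, with dotted lines at these limits, and the medians run from 5.15 for fibrillar collagens to -5.17 for desmosome genes.

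Vessel genes were higher in pulp among those measured: 19 of 19 measured members were at least 2-fold higher in pulp and 0 lower (median log2 ratio 4.48, or 4.64 with unlisted members at their bound). Of the 25 matched members, 6 stayed under 20 counts in both libraries. Among the 19, 6 were unlisted in epithelium, and others such as SOX18, CDH5 and VWF had fewer than 20 counts there. Those members entered through pulp alone. The vascular growth factor receptor KDR had 147 counts in pulp and none listed in epithelium, at least 35.2-fold higher. The angiopoietin receptor TEK was at least 29.7-fold higher in pulp, with 124 counts against none listed in epithelium. The apelin receptor APLNR had 290 counts in pulp and none listed in epithelium, at least 69.4-fold higher. PECAM1, which blood cells also carry, was closer, with 574 counts in pulp and 61 in epithelium, 6.75-fold higher (5.18 to 8.94). Pericyte and smooth muscle genes were less uniform, as 9 of 14 measured members were at least 2-fold higher in pulp and 2 lower (median log2 ratio 1.68), against 12 higher and 1 lower with the deposited RPM values. PDGFRB had 547 counts in pulp and 7 in epithelium. The pericyte gene RGS5 was 32.1-fold higher in pulp (15.4 to 80.5), with 313 counts against 7 in epithelium. The contractile genes ACTG2 and MYLK lay within 2-fold. Smooth muscle myosin MYH11 had 152 counts in pulp and 308 in epithelium, 2.82-fold lower (2.32 to 3.45). MCAM, an adhesion protein of pericytes and endothelium, was 4.49-fold lower in pulp (2.61 to 8.10), with 18 counts against 58 in epithelium.

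Genes of macrophages were higher in pulp among those measured, as 16 of 17 measured members were at least 2-fold higher in pulp and 1 lower (median log2 ratio 3.54, or 3.80 with unlisted members at their bound). Among the 17, 8 were unlisted in epithelium, and others such as C1QB and CTSS had fewer than 20 counts there. Those members entered through pulp alone. LGALS3, the lower member, entered through epithelium alone. Complement C1QA had 201 counts in pulp and none listed in epithelium, at least 48.1-fold higher. The scavenger receptor CD163 was at least 12.9-fold higher in pulp, with 54 counts against none listed in epithelium. The lysosomal protease CTSS had 490 counts in pulp and 10 in epithelium, 35.2-fold higher (18.95 to 73.8). LGALS3, a lectin that epithelia also make, was 34.01-fold lower in pulp (14.2 to 107), with 5 counts against 122 in epithelium. Lymphocyte genes were present at low counts, and 7 of 7 measured members were at least 2-fold higher in pulp and 0 lower (median log2 ratio 2.38). Another 6 of the 13 matched members stayed under 20 counts in both libraries. CD4, CD3D, CD3E, CD8A, IL2RG and AIOLOS had fewer than 20 counts in epithelium and so entered through pulp alone. CD4 had 91 counts in pulp and none listed in epithelium, at least 21.8-fold higher. CD3D was 7.60-fold higher in pulp (3.98 to 16.3), with 106 counts against 10 in epithelium. Haemoglobin genes of red cells were on the same side, although globin genes have similar copies. The beta chain gene HBBA had 8105 counts in pulp and 193 in epithelium, 30.1-fold higher (26.1 to 34.9). The erythroid factor KLF1 was 2.52-fold lower in pulp (2.07 to 3.07), with 162 counts against 293 in epithelium.

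Interferon and antigen presentation genes were all higher among those measured: 21 of 21 measured members were at least 2-fold higher in pulp and 0 lower (median log2 ratio 4.53). Among the 21, 3 were unlisted in epithelium, and others such as IFIT5, BLB2 and IRF7 had fewer than 20 counts there. Those members entered through pulp alone. The antiviral sensor IFIH1 had 88 counts in pulp and 7 in epithelium, 9.02-fold higher (4.20 to 23.1). The antiviral GTPase MX1 was at least 25.3-fold higher in pulp, with 106 counts against none listed in epithelium. The factor IRF7, which drives interferon genes, had 486 counts in pulp and 5 in epithelium, 69.7-fold higher (29.7 to 216). The class II chaperone CD74 had 4941 counts in pulp and 74 in epithelium. The class I gene BF2 was 15.6-fold higher in pulp (11.1 to 22.7), with 740 counts against 34 in epithelium, and class I and II genes have similar copies. Of cytokines and chemokines, 7 of 7 measured members were at least 2-fold higher in pulp and 0 lower (median log2 ratio 4.06, or 4.44 with unlisted members at their bound). Another 16 of the 23 matched members stayed under 20 counts in both libraries. Of the 7, 5 were unlisted in epithelium and so entered through pulp alone. IL15, which sustains lymphocytes, had 91 counts in pulp and none listed in epithelium, at least 21.8-fold higher. The B cell factor TNFSF13B was at least 14.3-fold higher in pulp, with 60 counts against none listed in epithelium. In the papilla and wound libraries OASL ranged from 2.20 CPM in the resting papilla to 242 CPM at day 2, against 446 CPM in pulp and none listed in epithelium. Most leukocyte markers, CD74 among them, were higher in the pulp library too, and their part in this result was not tested.

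Melanocyte genes were lower in pulp, as 7 of 7 measured members were at least 2-fold lower in pulp and 0 higher (median log2 ratio -3.51, or -3.80 with unlisted members at their bound), against 0 higher and 6 lower with the deposited RPM values. TYRP1 and PMEL (MMP115 in the tables) encode melanosome proteins. TYRP1 had 23 counts in pulp and 1151 in epithelium, 69.8-fold lower (46.3 to 110.5). PMEL was 43.5-fold lower in pulp (28.2 to 70.7), with 21 counts against 655 in epithelium. Tyrosinase (TYR), the first enzyme of melanin synthesis, had 49 counts in pulp and 444 in epithelium, 12.6-fold lower (9.39 to 17.3). The receptor KIT was 2.45-fold lower in pulp (1.89 to 3.21), with 92 counts against 162 in epithelium. POMC, the precursor of melanocyte-stimulating hormone, was on the other side, with 654 counts in pulp and none listed in epithelium, at least 156-fold higher. MC1R, the receptor of that hormone on pigment cells, was matched to no record. EDN3, an endothelin that acts on pigment cells, had 5 counts in pulp and 52 in epithelium, 14.5-fold lower (5.83 to 46.5).

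Among signalling pathways, Wnt genes lay on both sides. In the list as a whole, 19 of 37 measured members were at least 2-fold higher in pulp and 11 lower (median log2 ratio 1.01). Of the ligands, WNT5A was 2.24-fold higher in pulp (1.88 to 2.69), with 512 counts against 164 in epithelium. WNT11 had 86 counts in pulp and none listed in epithelium, at least 20.6-fold higher. WNT6, a Wnt of surface epithelia, was 3.68-fold lower in pulp (2.77 to 4.92), with 69 counts against 182 in epithelium. The R-spondins, which amplify Wnt signals, were on the pulp side. RSPO1 had 376 counts in pulp and 16 in epithelium, 16.9-fold higher (10.2 to 29.8). RSPO3 was at least 22.96-fold higher in pulp, with 96 counts against none listed in epithelium. RSPO4, which nails need in humans, had 95 counts in pulp and none listed in epithelium, at least 22.7-fold higher. Their receptor LGR4 was 6.41-fold lower in pulp (4.30 to 9.86), with 30 counts against 138 in epithelium. Frizzled receptors divided by gene. FZD3, FZD8 and FZD9 were lower in pulp, and FZD1, FZD2 and FZD6 were higher. FZD8 had 18 counts in pulp and 100 in epithelium, 7.74-fold lower (4.66 to 13.6). FZD9 was 7.69-fold lower in pulp (5.28 to 11.5), with 33 counts against 182 in epithelium. On the other side FZD2 had 121 counts in pulp and 6 in epithelium, 14.5-fold higher (6.46 to 40.2). FZD6 was 7.53-fold higher in pulp (4.64 to 12.99), with 189 counts against 18 in epithelium.

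Inhibitors of Wnt signals lay on both sides. SFRP1 and FRZB belong to the family that binds Wnt proteins directly. SFRP1 had 607 counts in pulp and 7 in epithelium, 62.2-fold higher (30.01 to 155). FRZB was 117-fold higher in pulp (76.99 to 187), with 3580 counts against 22 in epithelium. DKK2, which blocks the Wnt coreceptors, had 155 counts in pulp and 16 in epithelium, 6.95-fold higher (4.15 to 12.5). NOTUM, an enzyme that inactivates Wnt proteins, and KREMEN1, a receptor of DKK proteins, were on the other side. NOTUM was 3.48-fold lower in pulp (2.25 to 5.51), with 30 counts against 75 in epithelium. KREMEN1 had 95 counts in pulp and 245 in epithelium, 3.59-fold lower (2.83 to 4.60). Of the nuclear partners of beta-catenin, TCF7L2 was 13.5-fold higher in pulp (11.4 to 16.1), with 2616 counts against 139 in epithelium. TCF7 had 19 counts in pulp and 51 in epithelium, 3.74-fold lower (2.17 to 6.71). LEF1 lay within 2-fold, at 221 counts in pulp and 173 in epithelium. CTNNB1, which encodes beta-catenin itself and also serves cadherin junctions, was 2.15-fold lower in pulp (2.07 to 2.24), with 3787 counts against 5850 in epithelium.

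Of BMP and TGF-beta genes, 15 of 27 measured members were at least 2-fold higher in pulp and 2 lower (median log2 ratio 1.21), against 18 higher and 1 lower with the deposited RPM values. Of the ligands, BMP4 had 819 counts in pulp and 9 in epithelium, 65.3-fold higher (34.2 to 143). GDF10, a relative of the BMP proteins, was 251-fold higher in pulp (97.8 to 922), with 1399 counts against 4 in epithelium. BMP7 lay within 2-fold, at 158 counts in pulp and 106 in epithelium. The activin subunit INHBA had 204 counts in pulp and none listed in epithelium, at least 48.8-fold higher. SOSTDC1 and GREM1 encode secreted BMP inhibitors. SOSTDC1 was at least 25.8-fold higher in pulp, with 108 counts against none listed in epithelium. GREM1 had 27 counts in pulp and none listed in epithelium, at least 6.46-fold higher. Of genes that BMP signals are known to induce, ID1 was 8.73-fold higher in pulp (6.498 to 11.97), with 584 counts against 48 in epithelium. ID2 had 8084 counts in pulp and 844 in epithelium, 6.87-fold higher (6.40 to 7.39). BAMBI, a decoy receptor, was 7.53-fold higher in pulp (6.72 to 8.46), with 3453 counts against 329 in epithelium. Related members of the list were closer to level, so these folds do not stand for such genes as a group. ID4 had 62 counts in pulp and 41 in epithelium, and SMAD7 had 77 and 38, both within 2-fold. SMAD6 was at least 2-fold higher in pulp, with 206 counts against 70 in epithelium. SMAD1, a transducer of BMP signals, had 11 counts in pulp and 43 in epithelium, 5.45-fold lower (2.76 to 11.7). SMAD3, which carries TGF-beta and activin signals, was 26.5-fold higher in pulp (7.09 to 223), with 74 counts against 2 in epithelium.

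The hedgehog ligand SHH had no listed counts in pulp and 48 counts in epithelium, at least 22.3-fold lower. The hedgehog list was otherwise on the pulp side or level, as 3 of 8 measured members were at least 2-fold higher in pulp and 1 lower (median log2 ratio 0.76), against 6 higher and 1 lower with the deposited RPM values. The receptor and target PTCH1 was 1.78-fold higher in pulp (1.38 to 2.30), with 218 counts against 88 in epithelium. The coreceptor BOC had 1129 counts in pulp and 150 in epithelium, 5.40-fold higher (4.55 to 6.45). Of FGF genes, 6 of 13 measured members were at least 2-fold higher in pulp and 1 lower (median log2 ratio 0.89), against 10 higher and 1 lower with the deposited RPM values. The receptor FGFR1 was 5.65-fold higher in pulp (4.78 to 6.72), with 1221 counts against 155 in epithelium. FGFR2, a receptor known from epithelial cells, lay within 2-fold at 158 counts in pulp and 202 in epithelium. FGFBP1, a carrier that releases FGFs from matrix, had 129 counts in pulp and 416 in epithelium, 4.49-fold lower (3.68 to 5.52). SPRY2 and SPRED1 encode inhibitors of the pathway. SPRY2 was 3.49-fold higher in pulp (2.33 to 5.40), with 141 counts against 29 in epithelium. SPRED1 had 291 counts in pulp and 45 in epithelium, 4.64-fold higher (3.38 to 6.501).

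The EGF and ErbB pathway list had the lowest median of the signalling lists. It holds EGF family ligands, which drive growth of surface epithelia, and also receptors and other genes such as ADAM17 and LRIG3. 10 of 11 measured members were at least 2-fold lower in pulp and 1 higher (median log2 ratio -1.40), against 1 higher and 5 lower with the deposited RPM values. Amphiregulin (AREG) was 87.1-fold lower in pulp (33.6 to 322), with 4 counts against 250 in epithelium. Betacellulin (BTC) had 7 counts in pulp and 300 in epithelium, 59.7-fold lower (28.6 to 149.9). Epigen (EPGN) was 24.9-fold lower in pulp (11.7 to 63.2), with 7 counts against 125 in epithelium. The exception was NRG2, a neuregulin, with 184 counts in pulp and none listed in epithelium, at least 44.00-fold higher. The receptor ERBB2 had 3 counts in pulp and 23 in epithelium, 10.7-fold lower (3.23 to 55.6), and EGFR stayed under 20 counts in both libraries. AREG, BTC, EPGN, EREG, TGFA and ERBB2 had fewer than 20 counts in pulp and so entered through epithelium alone. NRG2 entered through pulp alone, so the filter favoured the direction of each of these members. Genes of the IGF and PDGF pathways stood opposite, as 8 of 13 measured members were at least 2-fold higher in pulp and 0 lower (median log2 ratio 3.12). IGF1 was at least 31.1-fold higher in pulp, with 130 counts against none listed in epithelium. The binding protein IGFBP5 had 5062 counts in pulp and 180 in epithelium, 20.2-fold higher (17.4 to 23.5), while the receptor IGF1R was within 2-fold, at 51 counts in pulp and 62 in epithelium.

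Notch genes were mixed, as 4 of 10 measured members were at least 2-fold lower in pulp and 2 higher (median log2 ratio -0.79), against 3 higher and 1 lower with the deposited RPM values. The ligand JAG2 was 2.46-fold lower in pulp (2.09 to 2.90), with 238 counts against 420 in epithelium. The receptor NOTCH1 lay within 2-fold at 1394 counts in pulp and 1588 in epithelium. The modifying enzyme LFNG had 2108 counts in pulp and 166 in epithelium, 9.11-fold higher (7.78 to 10.7). Of retinoic acid genes, 5 of 8 measured members were at least 2-fold higher in pulp and 0 lower (median log2 ratio 2.42). The synthesis enzyme ALDH1A3 was 27.1-fold higher in pulp (17.3 to 45.4), with 719 counts against 19 in epithelium. The retinol uptake receptor STRA6 had 194 counts in pulp and none listed in epithelium, at least 46.4-fold higher, whereas the nuclear receptor RXRA lay within 2-fold. Guidance genes were mixed, as 7 of 21 measured members were at least 2-fold lower in pulp and 5 higher (median log2 ratio -0.22), against 5 higher and 2 lower with the deposited RPM values (median 0.25). These shares were 33.3% lower and 23.8% higher, against 20.4% and 26.7% of all records. Netrin NTN1 was at least 65.05-fold higher in pulp, with 272 counts against none listed in epithelium. The ephrin receptor EPHA1 had 12 counts in pulp and 393 in epithelium, 45.6-fold lower (25.8 to 89.1). SEMA4B was 14.7-fold lower in pulp (10.2 to 21.9), with 32 counts against 338 in epithelium.

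**Figure D5:**
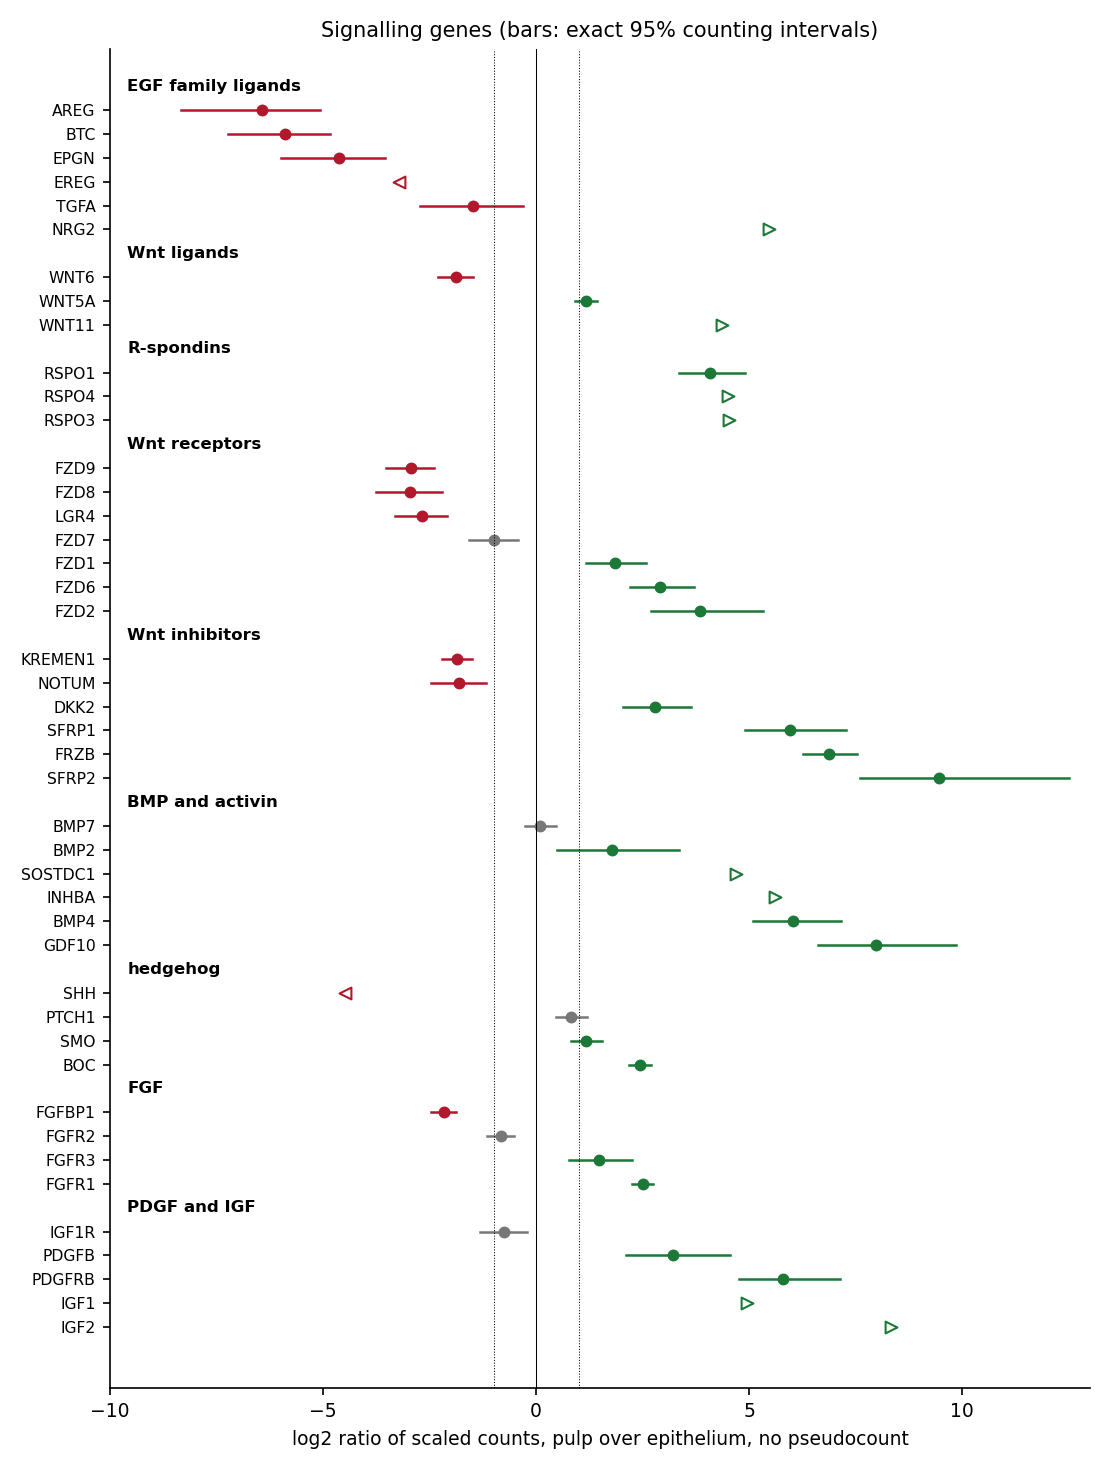
The horizontal axis is the log2 ratio of scaled counts, pulp over epithelium, with no pseudocount. Bars are exact 95% counting intervals and open triangles are bounds for genes unlisted in 1 library. EGF family ligands other than NRG2, SHH, WNT6, LGR4, FZD8 and FZD9 lie left of the line at 0, and R-spondins, SFRP genes, BMP4, GDF10 and PDGFRB lie right of it.

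Of 84 ligand and receptor pairs examined, 14 had both genes measured. Both genes were higher in pulp in 2 pairs, PDGFB with PDGFRB and ANGPT2 with TEK. PDGFB had 90 counts in pulp and 7 in epithelium, 9.22-fold higher (4.30 to 23.6). ANGPT2, an angiopoietin of vessel lining, was 25.5-fold higher in pulp (6.80 to 214), with 71 counts against 2 in epithelium. The ligand was higher and the receptor lower in 1 pair, RSPO3 with LGR4. In no pair was the ligand lower and the receptor higher, or were both lower. In 6 pairs the ligand was higher and the receptor within 2-fold, among them IGF1 and IGF2 with IGF1R and NTN1 with UNC5B. The netrin receptor UNC5B had 184 counts in pulp and 100 in epithelium, 1.32-fold higher (1.03 to 1.70). In 2 pairs, SHH with PTCH1 and JAG2 with NOTCH1, the ligand was lower and the receptor within 2-fold. In 1 pair, PDGFD with PDGFRB, the ligand was within 2-fold and the receptor higher, and in 2 pairs, JAG1 with NOTCH1 and BMP7 with ACVR1, both were within 2-fold. The 6 pairs with a higher ligand and a level receptor include GAS6 with AXL. The record used for AXL was deposited under the symbol TYRO3, with 246 counts in pulp and 260 in epithelium. It served AXL alone, so PROS1 with TYRO3 was not counted among the 14. All other pairs beyond these 14 had a gene under 20 counts or matched to no record.

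Metabolic genes differed by pathway. For glycolysis, 8 of 14 measured members were at least 2-fold lower in pulp and 2 higher (median log2 ratio -1.34). The glycolytic enzymes ENO1 and GPI were among the lower genes. ENO1 was 6.13-fold lower in pulp (5.76 to 6.53), with 1245 counts against 5477 in epithelium. GPI had 174 counts in pulp and 822 in epithelium, 6.58-fold lower (5.58 to 7.80). The lactate exporter SLC16A1 was 4.39-fold lower in pulp (3.59 to 5.40), with 127 counts against 400 in epithelium. Lactate dehydrogenase subunits differed in direction. LDHA had 120 counts in pulp and 551 in epithelium, 6.40-fold lower (5.24 to 7.86). LDHB was 1.91-fold higher in pulp (1.84 to 1.99), with 8655 counts against 3245 in epithelium. GAPDH, often used as a standard, had 15460 counts in pulp and 15774 in epithelium, 1.42-fold lower (1.39 to 1.45). Scaled to the library totals alone, GAPDH was slightly higher in pulp, so its direction depends on the scaling. The hexokinase HK1 was 2.87-fold higher in pulp (1.502 to 5.94), with 48 counts against 12 in epithelium.

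Of ribosomal protein genes, 33 of 54 measured members were at least 2-fold lower in pulp and 0 higher (median log2 ratio -1.50), against 2 higher and 26 lower with the deposited RPM values. RPL36 of the large subunit had 3570 counts in pulp and 17804 in epithelium, 6.95-fold lower (6.71 to 7.21). RPS16 of the small subunit was 5.98-fold lower in pulp (5.84 to 6.12), with 8928 counts against 38306 in epithelium. RPS2, also of the small subunit, had 19268 counts in pulp and 10018 in epithelium, 1.38-fold higher (1.35 to 1.41). Ribosomal protein genes have many similar copies, and their shares move with the scaling. Of genes used as standards, including RPLP0 and EEF1A1, 5 of 13 measured members were at least 2-fold lower in pulp and 1 higher (median log2 ratio -0.75), against 1 higher and 0 lower with the deposited RPM values. Secretory pathway genes were mostly within 2-fold, as 12 of 46 measured members were at least 2-fold higher in pulp and 5 lower (median log2 ratio 0.42), against 23 higher and 2 lower with the deposited RPM values. The share higher, 26.1%, was near the 26.7% of all records, and 10.9% were lower against 20.4%. The folds below are of single members and do not stand for the list. HSPA5 and PDIA4 help proteins fold in the endoplasmic reticulum. HSPA5 was 2.70-fold higher in pulp (2.58 to 2.82), with 9188 counts against 2442 in epithelium. PDIA4 had 3558 counts in pulp and 202 in epithelium, 12.6-fold higher (10.96 to 14.6). The KDEL receptor KDELR3 was 66.2-fold higher in pulp (22.4 to 323), with 277 counts against 3 in epithelium. Subunits of the COPI coat differed. COPA had 20 counts in pulp and 286 in epithelium, 19.9-fold lower (12.7 to 33.1). COPB1 was 1.497-fold lower in pulp (1.24 to 1.81), with 216 counts against 232 in epithelium, but close to level when scaled to the library totals alone. COPG1 had 1598 counts in pulp and 227 in epithelium, 5.05-fold higher (4.39 to 5.83).

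Cell cycle genes lay within 2-fold in most cases. Of S phase genes, 4 of 28 measured members were at least 2-fold higher in pulp and 1 lower (median log2 ratio 0.20), against 10 higher and 1 lower with the deposited RPM values, and 23 lay within 2-fold. The replicative helicase subunit MCM6 was 1.02-fold higher in pulp (0.782 to 1.34), with 138 counts against 97 in epithelium. The clamp loader RFC4 had 68 counts in pulp and 42 in epithelium, 1.16-fold higher (0.779 to 1.75). TYMS, which makes thymidylate, was 3.47-fold lower in pulp (2.61 to 4.66), with 69 counts against 172 in epithelium. Of G2 and mitosis genes, 5 of 38 measured members were at least 2-fold lower in pulp and 3 higher (median log2 ratio 0.08), against 8 higher and 0 lower with the deposited RPM values, and 30 lay within 2-fold. CDK1, the kinase of mitotic entry, had 798 counts in pulp and 435 in epithelium, 1.32-fold higher (1.17 to 1.48). ASPM, a spindle pole protein, was 1.07-fold higher in pulp (0.833 to 1.39), with 157 counts against 105 in epithelium. The kinase PLK1 had 223 counts in pulp and 403 in epithelium, 2.52-fold lower (2.13 to 2.98). Of cyclin and growth arrest genes, 4 of 14 measured members were at least 2-fold higher in pulp and 4 lower (median log2 ratio 0.37), against 6 higher and 2 lower with the deposited RPM values. Each of these shares with the main scaling was 28.6%, against 26.7% higher and 20.4% lower over all records. The antiproliferative genes BTG1 and BTG2 were lower in pulp. BTG1 was 3.12-fold lower in pulp (2.93 to 3.32), with 1472 counts against 3296 in epithelium. BTG2 had 378 counts in pulp and 1425 in epithelium, 5.25-fold lower (4.69 to 5.90). MXD4, an antagonist of MYC, was 5.41-fold higher in pulp (3.83 to 7.84), with 279 counts against 37 in epithelium.

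Ion and water transport genes were mixed, as 7 of 17 measured members were at least 2-fold higher in pulp and 4 lower (median log2 ratio 0.67), against 9 higher and 4 lower with the deposited RPM values. Carbonic anhydrase CA2 had 28 counts in pulp and 326 in epithelium, 16.2-fold lower (11.02 to 24.8). The potassium channel KCNK1 was 8.59-fold lower in pulp (6.05 to 12.5), with 37 counts against 228 in epithelium. KCNJ8, a potassium channel of pericytes, had 34 counts in pulp and none listed in epithelium, at least 8.13-fold higher. Of nerve and Schwann cell genes, 4 of 6 measured members were at least 2-fold higher in pulp and 1 lower (median log2 ratio 1.40). Another 5 of the 11 matched members stayed under 20 counts in both libraries. FABP7, CNTN1, MBP and UCHL1 had fewer than 20 counts in epithelium and so entered through pulp alone. SOX10 entered through epithelium alone, so the filter favoured each direction counted here. The neuronal gene UCHL1 was 6.85-fold higher in pulp (3.67 to 14.1), with 105 counts against 11 in epithelium. SOX10, a factor shared by Schwann and pigment cells, had no listed counts in pulp and 30 counts in epithelium, at least 13.9-fold lower.

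A few other abundant pulp genes were picked with their values in view. The extracellular antioxidant enzyme GPX3 was 96.3-fold higher in pulp (78.4 to 119.5), with 12345 counts against 92 in epithelium. The lipid phosphatase PLPP3 had 12109 counts in pulp and 84 in epithelium, 103-fold higher (83.5 to 129.8). The growth factor PTN was 266-fold higher in pulp (114 to 821), with 1856 counts against 5 in epithelium. QPCT, which cyclises the ends of secreted peptides, had 2631 counts in pulp and 12 in epithelium, 157-fold higher (89.9 to 305). TPST1, which sulphates tyrosines of secreted proteins, was 66.98-fold higher in pulp (47.1 to 98.8), with 2894 counts against 31 in epithelium. On the epithelial side, a metallothionein record (MT3) had 400 counts in pulp and 8241 in epithelium, 28.7-fold lower (25.97 to 31.8). The tetraspanin CD9 was 60.4-fold lower in pulp (32.5 to 127), with 10 counts against 433 in epithelium. In all, 41 records with at least 200 counts in pulp were unlisted in epithelium, and 15 with at least 200 counts in epithelium were unlisted in pulp.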

How the data were processed

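Total RNA was extracted with Trizol and sequenced after a standard Illumina library preparation, per the labels' protocols, with 1 library for each of 6 groups. Per the file headers, the gene expression column that the authors deposited holds counts, whole numbers per chicken RefSeq transcript record, and no value under 2 is listed. A further deposited column, headed TPM in the files, holds RPM, since each value is the count per unit of a library total, with no division by length, and that total exceeds what the listed counts add up to. The total was worked back from records of 500 or more counts. The submitters' processing notes name mm10, which is a build of the mouse genome, for these chicken records. How reads were aligned and counted, and whether strand was used, is not given in the sources used here, so reads of overlapping or antisense genes, and of near-identical copies, may be counted together or split.

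Of 10964 records, 4822 had a symbol in the tables, 4980 were named by gene identifier and 11 by accession, both through a gene table from RefSeq, while 1151 stayed with a LOC number or without a name. edgeR 4.0.16, run in R 4.3.3, gave TMM factors for all 6 libraries from the recovered totals. Log2 ratios used scaled CPM plus 1, among records with at least 20 counts in either library. Folds carry exact conditional binomial (Clopper-Pearson) 95% intervals, which cover counting error only, and unlisted records were set to 3 counts, a convention for the least fold. Further computation used Python 3.11.15, numpy 2.4.6, pandas 2.3.3, scipy 1.17.1 and matplotlib 3.10.9, and the calculation was tested on simulated counts.

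Each tissue had 1 library, so differences were described by size and not tested. The members and the gene lists were chosen with earlier results of these data known. Genes were named by rule, as the 12 records at each end of the log2 ratios that had a symbol and 200 counts or more in either library, the members of each list with the largest absolute ratios (at most 6), the ligands and receptors with at least 20 counts, and the cell type markers. The alternatives were 4 scalings, including DESeq2 1.42.0 size factors, 2 pseudocounts, 2 filters, a 4-fold rule, unlisted records taken as 1 count, and records summed per symbol.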

Additional observations from a re-analysis of the deposited data

How the results depend on the processing

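The 2-fold rule placed 1832 of 6851 records higher in pulp than in epithelium and 1398 lower. The deposited RPM values gave 2625 higher and 761 lower, and their median log2 ratio was 0.61. A minimum of 200 counts gave 767 and 577 of 2440 records, and a 4-fold rule gave 1013 and 463. The other alternatives kept both counts within 1.5 times, and these were 1818 and 1369 with TMM over both libraries alone, 1836 and 1396 with DESeq2 size factors, 1740 and 1467 without the 100 most abundant records, 1950 and 1485 with a pseudocount of 0.1, 1370 and 1005 with a pseudocount of 5, 2300 and 1685 of 9879 records with no filter, 1832 and 1398 with unlisted records taken as 1 count, and 1829 and 1396 of 6838 with records summed per symbol. No list median and no ratio of a named gene that was past 2-fold changed sign under these alternatives. The medians of tight junction and guidance genes, both within 2-fold, had the other sign with RPM values, at 0.30 and 0.25. So did guidance genes with no filter, at 0.33. With a minimum of 200 counts, Notch genes (0.59) and the list of cyclin and growth arrest genes (-0.14) did as well. Of 354 named ratios, those that changed from the main setting and then lay outside their counting intervals were counted. They numbered 223 with a pseudocount of 5, 192 with RPM values, 80 without the 100 most abundant records and 74 with TMM over both libraries alone. The others were 71 with unlisted records taken as 1 count, 53 with DESeq2 size factors, 1 with records summed per symbol and 0 with a pseudocount of 0.1. A ratio that an alternative left unchanged was not counted, even where it lay outside. The ratios held a pseudocount and the intervals did not, so a ratio can lie outside with the main setting too. The number outside with the main setting was not counted. These counts therefore do not measure the effect of an alternative alone. No paired analysis was possible because each group had 1 library, and no library could be left out. Depth limits genes under 20 counts, and spread between birds was not measured.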
